A study of Mus musculus with 12 samples.

Results

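The comparison described here set 3 libraries from mice fed the CSF1 receptor inhibitor PLX6134 (CSF1Ri) against 3 libraries from Control mice. The libraries were chosen by their titles, CSF1Ri replicates 1 to 3 and Control replicates 1 to 3, and are 6 of the 12 in the series. The other 6 come from mice given an agonist antibody to CD40 (FGK4.5), alone or together with the inhibitor. They shared one estimate of the spread with the 6 described, and are quoted where the effect of the inhibitor without the antibody was set against its effect with it.

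All groups share one host. The mice carried Tyr::CreER, a Cre recombinase that tamoxifen activates and that the tyrosinase promoter limits to melanocytes, and the labels add "wild type" as the genotype of all samples. Melanomas were induced locally. From 30 days after induction, with a total tumor volume below 100 mm3, mice ate either normal chow or chow with 600 mg/kg PLX6134 for 30 days or until tumors reached 2 cm3. The antibody groups received 10 mg/kg FGK4.5 every 3 days for up to 10 injections. The labels mention a vehicle of PBS without saying whether these Control and CSF1Ri mice received it, and give neither an age in weeks nor a sex. Each library pooled at least 3 tumors. Tumors were digested with collagenase, followed by lysis of red cells and removal of dead ones on a density medium, and no gate or bead step that would select macrophages is named for the RNA, although the label reads tumor-associated macrophages.

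The CSF1 receptor is a tyrosine kinase on monocytes and macrophages, and its ligands CSF1 and IL-34 keep these cells alive and drive their maturation. In blood, classical monocytes with high Ly6C give rise to non-classical monocytes, which patrol vessels and are known to need CSF1 receptor signals to persist, while in tissues the same classical monocytes can become macrophages. Receptor-bound CSF1 is taken up and destroyed by these cells. Basophils, mast cells, eosinophils and neutrophils depend mainly on other growth factors.

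The 6 libraries held 26665394 to 32880763 estimated counts. Values are given as CPM (counts in every 1000000 of the library, after TMM normalization), always in the order of replicates 1, 2 and 3. Differences are on the log2 scale, CSF1Ri minus Control, with the standard error (SE) of the fit. A gene is said to rise or fall only at a Benjamini-Hochberg adjusted p below 0.05 in edgeR's quasi-likelihood test over 16027 genes. Lyz2, which encodes the lysozyme of phagocytes, stood at 14837, 17917 and 14285 CPM in the Control libraries and 22047, 22083 and 20438 CPM in the CSF1Ri libraries. On the per-length scale of TPM the pan-macrophage genes Cd68 and Adgre1 averaged 884 TPM and 92.4 TPM in Control, Csf1r averaged 300.2 TPM, and the tissue macrophage genes C1qa, Mrc1, C1qb and Apoe averaged 24.7, 24.1, 87.7 and 109.1 TPM. Genes of tissue-resident macrophages such as Siglec1 and Vsig4 averaged 1.29 and 0.645 TPM. The tissue macrophage genes thus ranged from near 0 to about the level of Adgre1 in Control.

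CSF1Ri replicate 3 stood apart from replicates 1 and 2. On the first principal component of the 6 libraries (29.2% of the variance) it lay at -2.13 against 80.6 and 87.8 for the other CSF1Ri libraries and -64.3 to -40.6 for Control. On the second (20.6%) it lay at -114.8, and the other 5 between 6.68 and 46.8. Its log2 CPM correlated on average at 0.914 across genes with the Control libraries and at 0.91 with the other CSF1Ri libraries, which themselves correlated more with each other and with it (0.916 for both) than with Control (0.905 for both). For named genes that passed the test without this library and not with it, that value is also given. Replicate 3 lay nearer to Control, so leaving it out enlarges many differences, and a pass without it is not separate support. Leaving out CSF1Ri replicate 1 or 2 instead gave 1 and 0 passing genes, against 124 without replicate 3. In RNA from a mixture of cells, fewer cells of a type and less RNA per cell cannot be told apart.

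Across all genes, 2 of 16027 passed the test, both higher with CSF1Ri (0.0125% of the genes tested) and none lower. Gm9973, an unprocessed pseudogene (ENSMUSG00000113175, chromosome 13, 4350397 to 4391265), was measured at 164, 148 and 127 CPM in the Control libraries and 518, 446 and 321 CPM in the CSF1Ri libraries. All 3 CSF1Ri libraries lay above all Control libraries, and the log2 difference was 1.55 ± 0.19 with an adjusted p of 0.0437. Nearly all its estimated counts came from a single transcript, which holds 3787 to 5384 of them per Control library and 11003 to 15251 per CSF1Ri library. The gene overlaps a processed pseudogene on the other strand (Gm47951), and the libraries carry no strand. Gpld1, which encodes an enzyme that cleaves GPI anchors (ENSMUSG00000021340, chromosome 13, 24943152 to 24992501), was listed at 0 in the 3 Control libraries and at 13.9, 14.1 and 3.44 CPM with CSF1Ri. Against a floor of 3 counts over the Control group the CSF1Ri mean of 10.5 CPM is at least 330.2-fold higher (adjusted p = 0.0437). Replicate 3 lay within the 2.07 to 6.17 CPM of the libraries with the antibody. Gpld1 overlaps Mrs2 on the other strand, and whether its 0 in Control came from the division of reads between genes was not tested. Its counts were 76 to 410 in each of the 9 other libraries of the series, those with the antibody included, and Gpld1 was the 1 gene listed at 0 in every Control library with at least 10 counts in each of the other 9. In CSF1Ri 6 genes met the same rule, among them the mitotic checkpoint gene Bub1b at 0 in each CSF1Ri library against 3.4, 2.78 and 2.71 CPM in Control (adjusted p = 0.0813; 0.0326 without replicate 3).

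**Figure D1:**
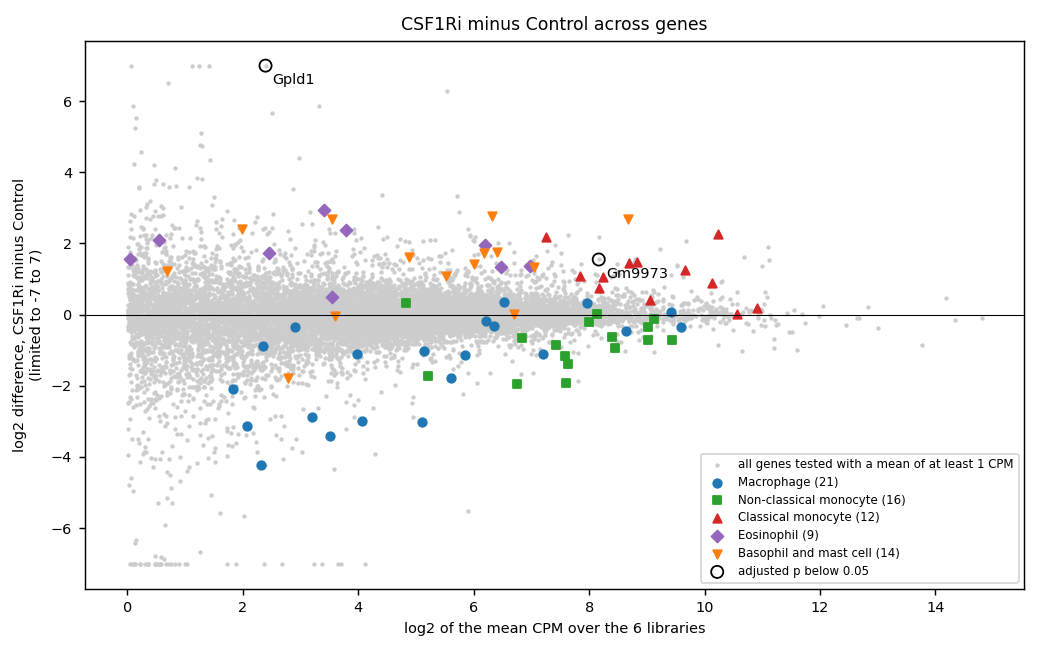
Log2 difference (CSF1Ri minus Control, vertical axis, limited to -7 to 7) against the log2 of the mean CPM over the 6 libraries (horizontal axis), one point per gene with a mean of at least 1 CPM. Classical monocyte genes (red triangles) lie at or above 0 and most macrophage and non-classical monocyte genes (blue circles, green squares) below it, and the circled genes are the 2 that passed the test.

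Below that threshold the comparison held 751 higher and 766 lower genes at an unadjusted p under 0.05 (4.69% and 4.78%). The CSF1Ri libraries all lay above the Control libraries for 1159 genes (7.23%) and below them for 1371 (8.55%). The median log2 difference over all genes was -0.01, with 7742 higher and 8221 lower. Without CSF1Ri replicate 3 the test called 124 of 16775 genes (0.739%), 81 higher and 43 lower (0.483% and 0.256%), and both genes named above were among them. DESeq2, run as an alternative, called 408 genes, 197 higher and 211 lower. Its log2 differences reached -25.2 and 24.3 among these, and a gene called at -21.8 had an adjusted p of 0.527 in edgeR. Other DESeq2 calls had moderate differences, such as Cd300e (-1.95), Csf1 (1.68) and H2-Aa (-0.98). DESeq2 called 69 of 95 genes named here, many of which were named for a small p. Neither Gm9973 nor Gpld1 passed when any 1 Control library was left out or when the 6 libraries were fitted alone.

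The genes were then read by role, through 42 lists of cell type markers and pathways that held 655 tested genes. None of these passed the edgeR test. At an unadjusted p under 0.05, 85 were higher and 94 lower, DESeq2 called 76, and edgeR called 43 without CSF1Ri replicate 3. Counts of list members without overlap between the groups are read against the 7.23% and 8.55% of all genes.

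The receptor and its ligands were examined first. Csf1r (ENSMUSG00000024621, chromosome 18, 61100598 to 61132149) stood at 876, 843 and 857 CPM in the Control libraries and 773, 624 and 644 CPM in the CSF1Ri libraries. The groups did not overlap, but the difference of -0.34 ± 0.21 did not pass the test (adjusted p = 0.685). Csf1, its main ligand (ENSMUSG00000014599, chromosome 3, 107741048 to 107760469), stood at 23.4, 41.3 and 27.4 CPM in the Control libraries and 90.4, 132 and 71.7 CPM in the CSF1Ri libraries. Each CSF1Ri library was above each Control library, with a difference of 1.68 ± 0.31 and an adjusted p of 0.0917, and 1.84 without replicate 3, where it passed the test. The second ligand, Il34, had 0 counts in Control and 80 over the 3 CSF1Ri libraries, under the filter on low counts. Csf2rb, the shared signalling chain of the receptors for GM-CSF, IL-3 and IL-5, was at 429, 445 and 445 CPM in the Control libraries and 778, 786 and 468 CPM in the CSF1Ri libraries, high in CSF1Ri replicates 1 and 2 and near Control in replicate 3 (0.62 ± 0.23, adjusted p = 0.432). Kit, the related kinase of mast cells and progenitors, was at 7.06, 0.487 and 1.72 CPM with CSF1Ri against 12.3, 11.5 and 8.27 CPM in Control, lower in all 3 (-1.79 ± 0.70, adjusted p = 0.459). Flt3, the receptor of dendritic cell progenitors, and the growth factor Csf3 had differences of -0.12 ± 0.80 and -0.24 ± 1.11, whose sign depended on single libraries. Of the 13 tested growth factor and receptor genes, 6 were higher and 7 lower, 2 in each direction without overlap.

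**Figure D2:**
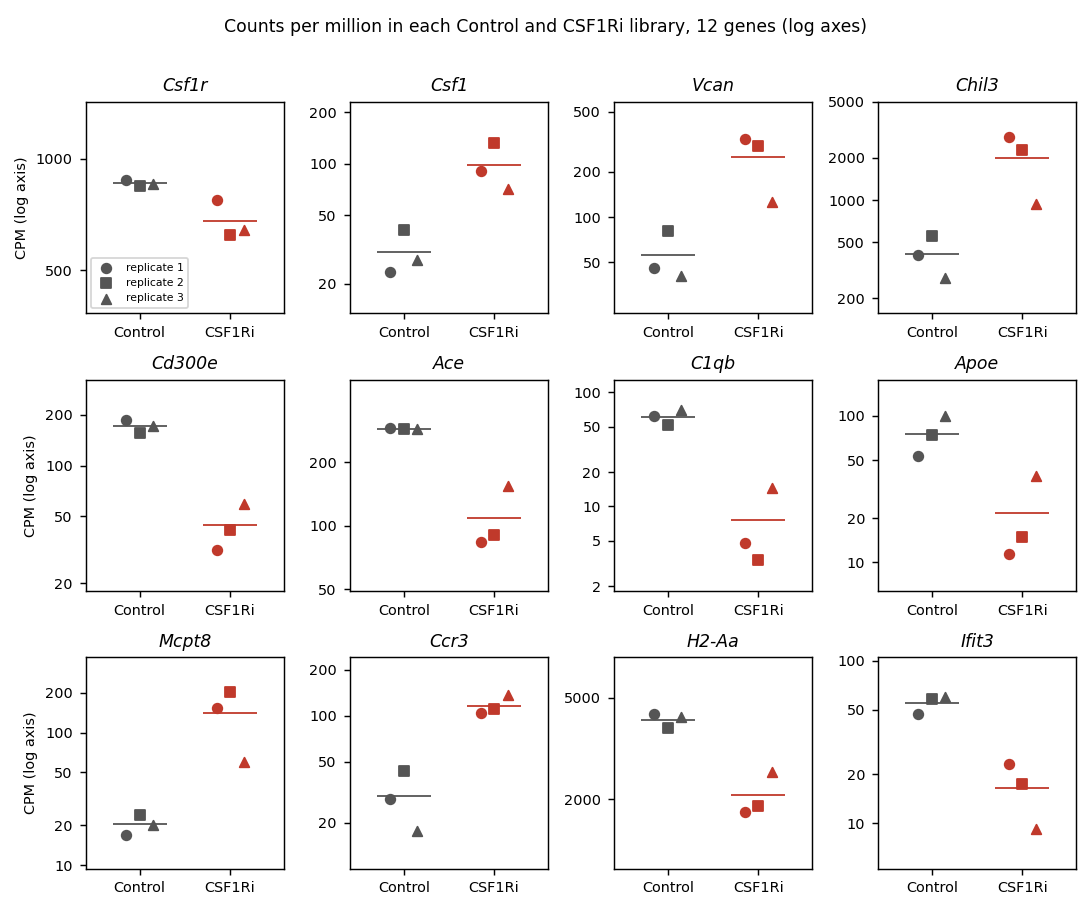
CPM (log axes) in the 3 Control (grey) and 3 CSF1Ri (red) libraries for 12 genes, with the marker shape giving the replicate and the line the mean of the group. In every panel the groups do not overlap, and CSF1Ri replicate 3 (triangle) lies nearest to Control for Csf1, Vcan, Chil3, Cd300e, Ace, C1qb, Apoe, Mcpt8 and H2-Aa but farthest from it for Ccr3 and Ifit3.

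Genes of non-classical monocytes stood lower. Of 16 listed genes 14 were lower, 12 of them without overlap, and 2 were higher with overlap, and the median was -0.71. Cd300e, an activating receptor of these cells (ENSMUSG00000048498, chromosome 11, 115051917 to 115062177), stood at 186, 156 and 172 CPM in the Control libraries and 31.4, 41.6 and 59.5 CPM in the CSF1Ri libraries. The groups were widely separated, the difference was -1.95 ± 0.26 and the adjusted p 0.0565; without replicate 3 it was -2.25 and passed. Ace, the angiotensin-converting enzyme (ENSMUSG00000020681, chromosome 11, 105967945 to 105989964), was at 83.7, 90.8 and 154 CPM with CSF1Ri against 289, 286 and 289 CPM in Control (-1.40 ± 0.32, adjusted p = 0.153; -1.74 without replicate 3, where it passed). The scavenger receptor Cd36 was at 79.3, 45.7 and 120.1 CPM with CSF1Ri against 336, 314 and 272 CPM in Control (-1.91 ± 0.40, adjusted p = 0.128), and it too passed without replicate 3 (-2.32). Nr4a1, the transcription factor that non-classical monocytes require, was at 600, 693 and 651 CPM in the Control libraries and 375, 390.4 and 413 CPM in the CSF1Ri libraries. Its 3 CSF1Ri values lay close together and below all 3 Control values (-0.72 ± 0.19, adjusted p = 0.255). Gngt2, a G protein subunit, and Fabp4, a fatty acid carrier, had differences of -0.64 ± 0.14 and -1.72 ± 0.56. Outside the list, S1pr5 is the sphingosine phosphate receptor by which these cells and NK cells leave the marrow, and it came from the NK and cytotoxic list. It was at 12.2, 12.7 and 14.2 CPM with CSF1Ri against 38.5, 35.8 and 40.1 CPM in Control (-1.55 ± 0.30, adjusted p = 0.0979). The survival gene Bcl2, from the Bcl2 family list, was at 19.9, 20.8 and 36 CPM with CSF1Ri against 92.7, 70.9 and 57.4 CPM in Control (-1.53 ± 0.29, adjusted p = 0.0954). Without replicate 3 the Bcl2 difference was -1.87 and passed.

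Classical monocyte genes stood higher, all 12 of them, 9 without overlap, with a median of 1.08. Vcan, the matrix proteoglycan versican (ENSMUSG00000021614, chromosome 13, 89655312 to 89742509), stood at 45.9, 80.3 and 40.7 CPM in the Control libraries and 329, 298 and 126 CPM in the CSF1Ri libraries. Replicates 1 and 2 were far above Control and replicate 3 moderately so, with a difference of 2.17 ± 0.48 (adjusted p = 0.138) and of 2.47 without replicate 3, where it passed the test. Chil3, which encodes the secreted chitinase-like protein Ym1, was at 408, 555 and 281 CPM in the Control libraries and 2793, 2286 and 933 CPM in the CSF1Ri libraries. The order was the same, and the difference of 2.27 ± 0.70 did not pass (adjusted p = 0.319). F13a1, the coagulation factor subunit made by monocytes, was at 1365, 1284 and 786 CPM with CSF1Ri against 477, 491 and 480.4 CPM in Control (1.25 ± 0.38). Fn1, fibronectin, was at 1738, 1618 and 996 CPM with CSF1Ri against 716, 951 and 662 CPM in Control (0.90 ± 0.21, 1.09 without replicate 3, which passed). The median of log2 CPM differences over the list was 0.98 with all 3 CSF1Ri libraries and 1.36 without replicate 3, and replicate 3 alone stood at 0.56 against 1.42 and 1.31. So the list stood above Control in each library, at different heights. Summed over the list the level was 5816 to 7232 CPM in Control and 8181 to 13493 CPM with CSF1Ri.

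Macrophage genes as a list stood lower, 19 of 22, 14 without overlap, with a median of -1.12. The general markers Adgre1 and Cd68 did not share this, while Csf1r, also on the list, was lower, as above. Adgre1, the gene of F4/80, was at 213, 223 and 229 CPM in the Control libraries and 296, 247 and 285 CPM in the CSF1Ri libraries, higher in all 3 (0.32 ± 0.15, adjusted p = 0.551), and Cd68 was at 718, 765 and 622 CPM with CSF1Ri against 690, 661 and 656 CPM in Control, with a difference of 0.07 ± 0.14 and overlapping groups. The 3 chains of complement C1q, made by mature tissue macrophages, stood lower with CSF1Ri. C1qb (ENSMUSG00000036905, chromosome 4, 136880129 to 136886187) stood at 61.9, 51.9 and 69.7 CPM in the Control libraries and 4.82, 3.37 and 14.5 CPM in the CSF1Ri libraries. C1qa was at 0.0679, 0.937 and 5.54 CPM with CSF1Ri against 16.4, 16.1 and 16.1 CPM in Control, and C1qc was at 0.849, 0 and 4.93 CPM with CSF1Ri against 15.6, 23.4 and 23.9 CPM in Control. None of the CSF1Ri values reached a Control value in these genes, and the differences were -3.01 ± 0.90 for C1qb, -2.87 ± 1.27 for C1qa and -3.42 ± 1.23 for C1qc, with adjusted p of 0.306, 0.514 and 0.398. Without replicate 3 the differences were -3.92, -5.04 and -5.60, and none of them passed. Apoe, the lipid carrier of macrophages, was at 52.9, 73.7 and 99.3 CPM in the Control libraries and 11.4, 15 and 39 CPM in the CSF1Ri libraries (-1.79 ± 0.70, -2.53 without replicate 3). Aif1, the actin-binding protein Iba1, was at 80.1, 75.2 and 124 CPM with CSF1Ri against 225, 189 and 194 CPM in Control (-1.12 ± 0.23, adjusted p = 0.124; -1.40 without replicate 3, where it passed). Pf4, a chemokine shared with platelets, was at 2.92, 2.55 and 5.68 CPM with CSF1Ri against 31.3, 26.4 and 31.4 CPM in Control, and Mrc1, the mannose receptor, overlapped between groups (-0.32 ± 0.58). Spic, the transcription factor of iron-recycling macrophages, is not on this list. It was at 19.7, 29.1 and 40.7 CPM with CSF1Ri against 69.5, 54.8 and 70.6 CPM in Control (-1.12 ± 0.26, passing without replicate 3 at -1.43). The list median was -1.19 with all libraries and -1.16 without replicate 3, so this direction was as large without that library. The summed level was 2926 to 3162 CPM in Control and 2251 to 2637 CPM with CSF1Ri.

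**Figure D3:**
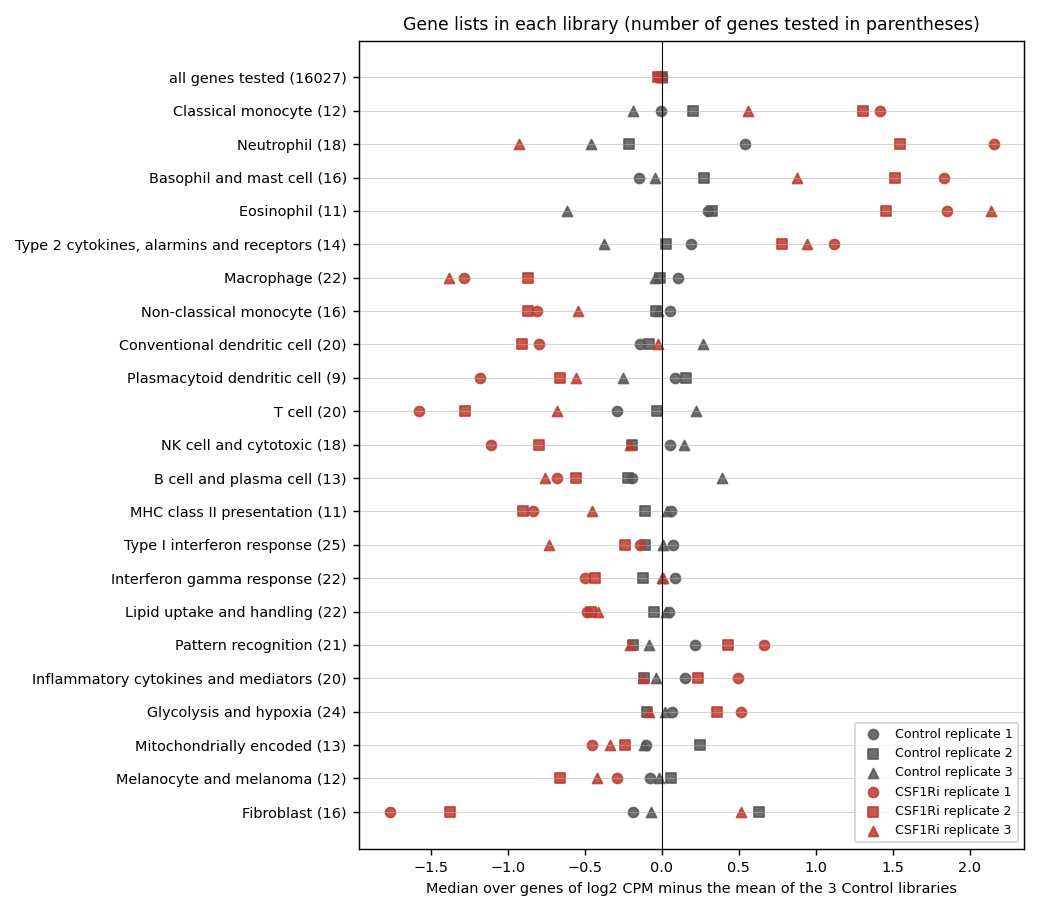
Median over the genes of each list of log2 CPM minus the Control mean (horizontal axis), in each of the 3 Control (grey) and 3 CSF1Ri (red) libraries, with the number of genes tested beside each list. Macrophage genes lie at -1.38 to -0.87 and classical monocyte genes at 0.56 to 1.42 in the CSF1Ri libraries, while neutrophil genes lie at 2.16 and 1.55 in replicates 1 and 2 and at -0.93 in replicate 3.

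Genes of basophils and mast cells stood higher, 13 of 16, 9 without overlap, with a median of 1.52. Mcpt8, the basophil protease (ENSMUSG00000022157, chromosome 14, 56082166 to 56085273), stood at 17, 24 and 19.9 CPM in the Control libraries and 154, 204 and 60.3 CPM in the CSF1Ri libraries. Every CSF1Ri library exceeded every Control library, by the least in replicate 3 (2.78 ± 0.51, adjusted p = 0.0917; 3.12 without replicate 3, where it passed). Il4, the type 2 cytokine that basophils secrete, was at 20.7, 23.6 and 16.3 CPM with CSF1Ri against 2.98, 3.99 and 2.51 CPM in Control (2.68 ± 0.56, adjusted p = 0.131). Cd200r3, an activating receptor of basophils and mast cells, was at 122, 185 and 83.2 CPM with CSF1Ri against 32.5, 46.9 and 36.1 CPM in Control (1.75 ± 0.35; 1.97 without replicate 3, where it passed). Fcer1a, the chain of the IgE receptor that binds IgE, was at 55.8, 81.4 and 49.96 CPM with CSF1Ri against 22.1, 39.6 and 26.1 CPM in Control (1.09 ± 0.33). Hgf, hepatocyte growth factor, was at 35.2, 27.3 and 37.6 CPM in the Control libraries and 109, 139 and 88.2 CPM in the CSF1Ri libraries, with no overlap (1.75 ± 0.30, adjusted p = 0.0813; 1.87 without replicate 3, where it passed). Hdc, the histamine-forming enzyme shared with neutrophils, was at 1029.5, 924 and 156 CPM with CSF1Ri against 132, 78.1 and 117 CPM in Control. Replicates 1 and 2 were far above Control while replicate 3 stood just above Control (2.69 ± 0.53; 3.14 without replicate 3, where it passed). The mast cell genes Mcpt1, Mcpt2 and Mrgprb2 had 0 counts in all 6 libraries, and Kit was lower, as above. The summed level of the list was 472 to 498 CPM in Control and 2002, 2057 and 811 CPM in CSF1Ri replicates 1 to 3. Hdc, which is also on the neutrophil list, made up 1029.5, 924 and 156 CPM of these CSF1Ri sums. In the Control libraries it made up 132, 78.1 and 117 CPM.

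Eosinophil genes stood higher in 11 of 11, 8 without overlap, with a median of 1.58, and here replicate 3 was not the lowest. The filter on low counts can keep a gene through the CSF1Ri libraries alone, so the count of 11 of 11 can depend on it. Ccr3, the eotaxin receptor of eosinophils and basophils (ENSMUSG00000035448, chromosome 9, 124021972 to 124031689), stood at 28.7, 43.6 and 17.8 CPM in the Control libraries and 103, 111 and 136 CPM in the CSF1Ri libraries. The 3 CSF1Ri values lay close together and well above Control (1.96 ± 0.41, adjusted p = 0.131). Ear6, an eosinophil ribonuclease of a family of near-identical genes whose reads can be split, was at 11, 9.89 and 35 CPM with CSF1Ri against 3.13, 2.03 and 2.14 CPM in Control (2.94 ± 0.54, 2.08 without replicate 3). Alox15, the lipoxygenase of eosinophils and some macrophages, was at 145, 124 and 111 CPM with CSF1Ri against 37.9, 78 and 34.3 CPM in Control (1.34 ± 0.38). Cd24a, a surface glycoprotein of granulocytes and B cells, was at 195, 109 and 239.7 CPM with CSF1Ri against 79.2, 86.3 and 43.6 CPM in Control. Gata1, the transcription factor of eosinophils, basophils and red cell precursors, is not on this list. It was at 21.3, 6.9 and 28.7 CPM with CSF1Ri against 2.8, 3.2 and 4.62 CPM in Control (2.42 ± 0.58). The granule gene Epx had 0 counts in Control and 13 with CSF1Ri. The list's summed level was 110 to 228 CPM in Control and 390 to 592 CPM with CSF1Ri.

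The promoters of 2 receptor genes of these lists, taken from promoters with a match, are shown as 250 bases before the gene's start (RefSeq, GRCm38.p6). Each AGATAA, a form of the GATA motif, is in capitals on either strand. The GATA family includes Gata1, whose own values are given above, and whether Gata1 acts on these genes was not tested. Ms4a2, the beta chain of the IgE receptor, lies on chromosome 19 (minus strand, 11623720 to 11623969) and Ccr3 on chromosome 9 (plus strand, 124021721 to 124021970).
Ms4a2: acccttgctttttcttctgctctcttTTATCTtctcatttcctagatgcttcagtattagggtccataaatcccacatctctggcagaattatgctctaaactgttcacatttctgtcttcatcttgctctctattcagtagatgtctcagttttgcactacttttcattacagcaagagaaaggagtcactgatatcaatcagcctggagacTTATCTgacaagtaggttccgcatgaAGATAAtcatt
Ccr3: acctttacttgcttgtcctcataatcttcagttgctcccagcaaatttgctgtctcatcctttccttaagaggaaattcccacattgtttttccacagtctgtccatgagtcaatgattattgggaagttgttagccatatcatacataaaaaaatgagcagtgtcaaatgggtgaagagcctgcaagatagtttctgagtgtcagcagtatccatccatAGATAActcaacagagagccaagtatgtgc
The first holds 3 matches and the second 1. The motif was found before 6 of the 14 tested basophil and mast cell genes with a promoter in the table (42.9%), before 2 of 8 eosinophil genes (25%) and before 11.4% of all 27025 genes. A match describes letters in the sequence and is not a measured binding site.

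Neutrophil genes and the genes of acute inflammation divided the CSF1Ri libraries. Of 18 neutrophil genes 12 were higher and 5 lower, 3 without overlap, all higher, with a median of 1.03. Cxcr2, the chemokine receptor of neutrophils, stood at 118, 37.5 and 43.3 CPM in the Control libraries and 296, 225 and 58.9 CPM in the CSF1Ri libraries. Replicates 1 and 2 were above all Control libraries, replicate 3 was inside their range, and the difference of 1.54 ± 0.58 did not pass (adjusted p = 0.433). Il1r2, the decoy receptor for IL-1, was at 742, 634 and 49.3 CPM with CSF1Ri against 194, 48.2 and 70.8 CPM in Control (2.19 ± 0.78; 2.70 without replicate 3, which passed). Mmp8, neutrophil collagenase, was at 204, 171 and 103 CPM with CSF1Ri against 48, 61 and 31.4 CPM in Control, an exception with no overlap (1.77 ± 0.50). Cd14, the co-receptor for lipopolysaccharide, was at 1204, 516 and 721 CPM in the Control libraries and 3762, 3338 and 364 CPM in the CSF1Ri libraries. Clec7a, the beta-glucan receptor Dectin-1, was at 1546, 1294 and 347 CPM with CSF1Ri against 454, 407 and 351 CPM in Control. For both, replicate 3 lay below every Control library, and both passed without it, at 2.11 and 1.79. The glucose transporter Slc2a1 was at 244, 181 and 53.7 CPM with CSF1Ri against 70.2, 61.7 and 67.7 CPM in Control, again with replicate 3 below Control (1.26 ± 0.44; 1.65 without it, which passed). The neutrophil list summed to 755 to 1751 CPM in Control, and to 5118, 4012 and 997 CPM in CSF1Ri replicates 1, 2 and 3. The part of neutrophil RNA in the values of these genes was not tested.

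Cytokines and growth factors included steep differences. Hbegf, a ligand of the EGF receptor, stood at 0.517, 1.14 and 1.87 CPM in the Control libraries and 143, 126 and 6.3 CPM in the CSF1Ri libraries. Replicate 3 was far below replicates 1 and 2, yet all 3 exceeded Control (6.28 ± 1.0, adjusted p = 0.0813; 6.82 without replicate 3, where it passed). Osm, oncostatin M of the IL-6 family (ENSMUSG00000058755, chromosome 11, 4236420 to 4241026), was at 443, 417 and 127 CPM with CSF1Ri against 59.1, 75.8 and 74 CPM in Control (2.24 ± 0.40, adjusted p = 0.0813). Il6 (ENSMUSG00000025746, chromosome 5, 30013114 to 30019981) was at 10.1, 19.3 and 10.9 CPM in the Control libraries and 41.5, 56.1 and 44.9 CPM in the CSF1Ri libraries, with replicate 3 as high as the other 2 (1.82 ± 0.31, adjusted p = 0.0813). Both passed without replicate 3, at 2.61 and 1.84. Tnf, in contrast, was at 11.1, 12.5 and 7 CPM with CSF1Ri against 24.7, 20.5 and 21.7 CPM in Control, lower in all 3 CSF1Ri libraries (-1.13 ± 0.37, adjusted p = 0.344). Of 20 inflammatory cytokines and mediators 11 were higher and 8 lower, 3 in each direction without overlap, and the list median was 0.42 without replicate 3 against 0.23 with it. Replicate 3 alone stood at -0.12. Among 25 chemokines 10 were higher and 15 lower, 4 and 5 of them without overlap, and the median was -0.60. Ppbp, a chemokine of platelets, was at 1.56, 0.0749 and 1.52 CPM with CSF1Ri against 10.8, 14.4 and 20.6 CPM in Control, far below in all 3 (-3.85 ± 0.94, adjusted p = 0.196). Ccl4, an inflammatory chemokine, was at 888, 801 and 250.2 CPM with CSF1Ri against 225, 225 and 248 CPM in Control, and Ccl7, a ligand of CCR2, was at 153, 134 and 15.7 CPM with CSF1Ri against 12.5, 21.8 and 22.6 CPM in Control; replicate 3 was just above Control for Ccl4 and inside the Control range for Ccl7, and both passed without it (1.84 and 2.90). Plaur, the urokinase receptor, was at 1108, 1040.1 and 668 CPM with CSF1Ri against 426, 453 and 432 CPM in Control, without overlap (1.10 ± 0.24; 1.28 without replicate 3, where it passed).

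Antigen presentation by MHC class II stood lower. Of 11 genes 10 were lower and 7 of these did not overlap, with a median of -0.65 (-0.83 in log2 CPM without replicate 3 and -0.66 with it). H2-Aa, the alpha chain of I-A (ENSMUSG00000036594, chromosome 17, 34282744 to 34287823), stood at 4312, 3811 and 4205 CPM in the Control libraries and 1785, 1882 and 2556 CPM in the CSF1Ri libraries. Each CSF1Ri library was below each Control library, replicate 3 being the highest of the 3 (-0.99 ± 0.20, adjusted p = 0.109; -1.18 without it, where it passed). The beta chain H2-Ab1 was at 1414, 1469 and 1987 CPM with CSF1Ri against 3207, 2940.2 and 3186 CPM in Control (-0.94 ± 0.20). H2-Eb1, the beta chain of I-E, was at 897, 973 and 1342 CPM with CSF1Ri against 2233, 1941 and 2292 CPM in Control (-1.01 ± 0.22; -1.22 without replicate 3, which passed). Cd74, the invariant chain, was at 8181, 8849 and 12576 CPM with CSF1Ri against 18936, 16258 and 18817 CPM in Control (-0.87 ± 0.22). Ciita, the transactivator that these genes require, was at 85.2, 80.6 and 81.1 CPM in the Control libraries and 49.1, 43.9 and 55 CPM in the CSF1Ri libraries. Its values were lower in all 3 CSF1Ri libraries (-0.74 ± 0.20, adjusted p = 0.258). Of the 20 genes of conventional dendritic cells, which also carry class II, 16 were lower, 0 without overlap, with a median of -0.45. Their summed level was 3112 to 5100 CPM in Control, 1727 and 1823 CPM in CSF1Ri replicates 1 and 2 and 4064 CPM in replicate 3. Zbtb46, the transcription factor of these cells, was at 4.68, 4.61 and 19.4 CPM with CSF1Ri against 18.7, 21.6 and 18.6 CPM in Control, and the calcium channel subunit Cacnb3 was at 52.7, 43.4 and 166 CPM with CSF1Ri against 166, 135 and 219 CPM in Control, so both were low in replicates 1 and 2 only. B cell genes, another class II source, were lower in 10 of 13, and Ms4a1, the gene of CD20, was at 0.17, 0.262 and 0.117 CPM with CSF1Ri against 1.67, 5.44 and 4.59 CPM in Control. The part of these cells in the class II values was not tested.

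The class II promoters share a CCAAT-containing Y box, and the 250 bases before H2-Aa (chromosome 17, minus strand, 34287824 to 34288073) and H2-Eb1 (chromosome 17, plus strand, 34305617 to 34305866) are shown with TGATTGG in capitals.
H2-Aa: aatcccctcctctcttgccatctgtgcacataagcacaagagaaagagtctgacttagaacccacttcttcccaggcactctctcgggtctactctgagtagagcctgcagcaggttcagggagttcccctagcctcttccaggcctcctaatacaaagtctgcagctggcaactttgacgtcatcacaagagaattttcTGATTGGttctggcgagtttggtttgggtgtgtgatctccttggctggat
H2-Eb1: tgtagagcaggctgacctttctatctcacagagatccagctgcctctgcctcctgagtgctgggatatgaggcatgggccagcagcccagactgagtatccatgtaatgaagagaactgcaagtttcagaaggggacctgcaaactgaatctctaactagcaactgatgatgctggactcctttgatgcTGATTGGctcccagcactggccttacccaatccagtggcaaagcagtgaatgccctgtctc
These letters were found on either strand before 7 of the 8 tested class II genes in the promoter table (87.5%), against 8.38% of all 27025 genes.

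Genes of the type I interferon response stood modestly lower, 19 of 25, 5 without overlap, with a median of -0.30. Ifit3, an antiviral gene (ENSMUSG00000074896, chromosome 19, 34583531 to 34588731), stood at 46.8, 58.1 and 59.6 CPM in the Control libraries and 23.1, 17.4 and 9.24 CPM in the CSF1Ri libraries. Replicate 3 had the lowest value, and all 3 were below Control (-1.73 ± 0.30, adjusted p = 0.0813; -1.46 without replicate 3, where it passed). Ifit2, its neighbour in the family, was at 18.3, 5.28 and 4.26 CPM with CSF1Ri against 59, 46.3 and 49.5 CPM in Control (-2.47 ± 0.68). Rsad2, the antiviral enzyme viperin, was at 24.5, 19.4 and 6.94 CPM with CSF1Ri against 57.7, 55.5 and 50.2 CPM in Control (-1.68 ± 0.52, adjusted p = 0.326). The chemokine Cxcl10, which is not on this list, was at 12.4, 12.7 and 5.22 CPM with CSF1Ri against 23.9, 25.5 and 19.9 CPM in Control (-1.19 ± 0.57). The list's median of log2 CPM differences was -0.40 with all libraries and -0.19 without replicate 3, which itself stood at -0.73 against -0.14 and -0.24, so here the third library was the lowest. Of 22 interferon gamma response genes 16 were lower, 3 without overlap. Their median was -0.50, -0.43 and 0.01 in CSF1Ri replicates 1, 2 and 3.

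The interferon-stimulated response element is written here as GAAANNGAAA, searched on both strands, where N is any base. It is in capitals in the 250 bases before Ifit3 (chromosome 19, plus strand, 34583279 to 34583528) and Rsad2 (chromosome 12, minus strand, 26456453 to 26456702).
Ifit3: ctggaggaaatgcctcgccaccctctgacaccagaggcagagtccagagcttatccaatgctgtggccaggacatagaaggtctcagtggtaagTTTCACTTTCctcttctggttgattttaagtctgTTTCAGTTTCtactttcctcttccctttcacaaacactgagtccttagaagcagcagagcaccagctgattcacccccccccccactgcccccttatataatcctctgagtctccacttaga
Rsad2: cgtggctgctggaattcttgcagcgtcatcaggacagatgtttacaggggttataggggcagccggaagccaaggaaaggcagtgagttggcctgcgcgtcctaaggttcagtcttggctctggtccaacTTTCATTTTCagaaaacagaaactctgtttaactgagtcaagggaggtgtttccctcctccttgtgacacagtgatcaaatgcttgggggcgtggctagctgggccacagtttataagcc
Ifit3 holds 2 matches and Rsad2 1. The element was found before 8 of the 18 tested response genes in the table (44.4%) and before 3.46% of all genes.

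Lymphocyte genes were mostly lower with CSF1Ri. T cell genes were lower in 17 of 20, 8 without overlap, with a median of -1.10 and a summed level of 206 to 310 CPM in Control and 96.4 to 164 CPM with CSF1Ri. Lck, the kinase of the T cell receptor, was at 47.5, 56.9 and 40.1 CPM in the Control libraries and 17.9, 30.5 and 17 CPM in the CSF1Ri libraries, with no overlap (-1.14 ± 0.35, adjusted p = 0.315). NK and cytotoxic genes were lower in 16 of 18, 9 without overlap (median -0.75). They summed to 1553 to 2005 CPM in Control and to 936, 1029 and 1558 CPM in CSF1Ri replicates 1 to 3, the third inside the Control range. Klre1, an NK cell receptor chain, was at 3.63, 3.45 and 6.56 CPM with CSF1Ri against 12.4, 9.68 and 19.2 CPM in Control. The B cell and plasma cell list summed to 457 to 739 CPM in Control and 245 to 344 CPM with CSF1Ri. Ighm, the IgM heavy chain, was at 140, 173 and 140.1 CPM with CSF1Ri against 279.9, 244 and 242 CPM in Control (-0.76 ± 0.22). Tumor and stromal genes were scarce. The 12 melanocyte genes summed to 48.7 to 59 CPM in Control and 18.3 to 46.3 CPM with CSF1Ri, and Mlana was at 0 in each CSF1Ri library against 0.182, 1.39 and 0.435 CPM in Control. The 16 fibroblast genes summed to 89.5 to 182 CPM in Control and 57.4 to 181 CPM with CSF1Ri. The pan-leukocyte gene Ptprc differed by 0.05 ± 0.23.

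**Figure D4:**
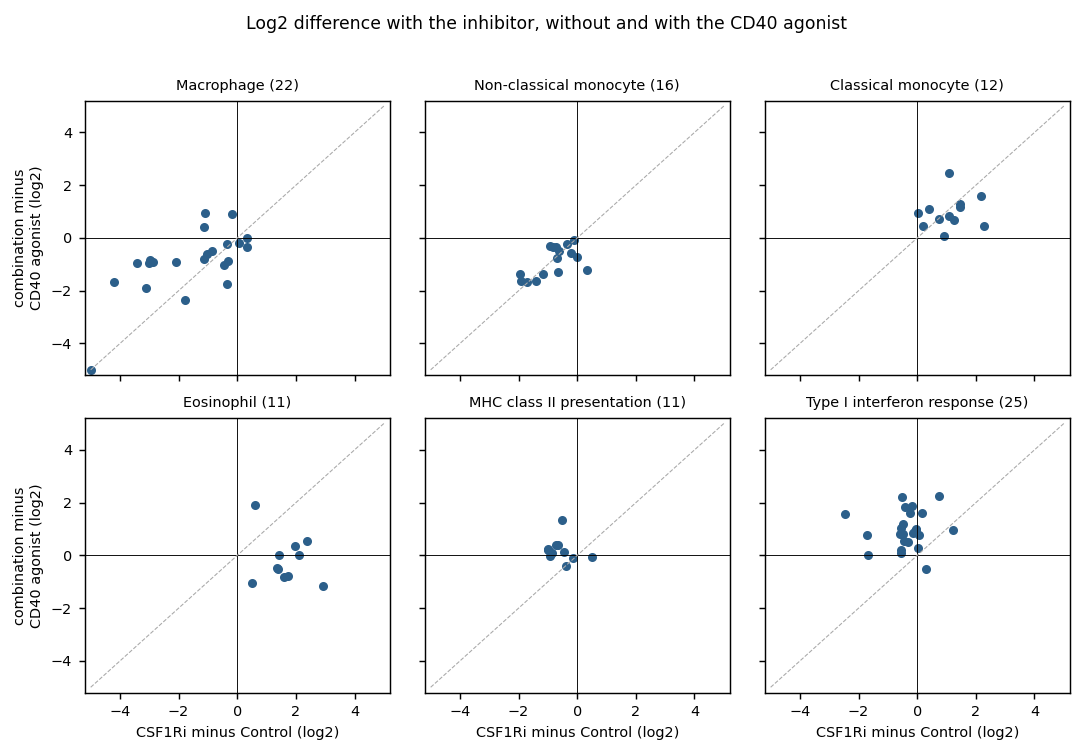
Each point is a gene of a list, with its log2 difference CSF1Ri minus Control (horizontal axis) and combination minus CD40 agonist (vertical axis), both limited to -5 to 5, and the dashed line marks equal differences. All 12 classical monocyte genes lie above 0 on both axes and 14 of 16 non-classical monocyte genes below 0 on both, and type I interferon genes mostly lie left of 0 on the horizontal and above 0 on the vertical axis (19 of 25 lower, 24 of 25 higher).

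The remaining lists hold metabolic and regulatory genes and markers of other cells. Genes of glycolysis and hypoxia stood higher in 19 of 24, 5 without overlap (median 0.27). The list's median of log2 CPM differences was 0.43 without replicate 3 and 0.24 with it. Replicate 3 alone stood at -0.09 and summed to 4819 CPM, below the 4882 to 5632 CPM of Control. The hexokinase Hk2 was at 109, 121 and 77.5 CPM with CSF1Ri against 45.9, 60.1 and 40.4 CPM in Control (1.07 ± 0.23). All 13 mitochondrially encoded transcripts were lower, 8 without overlap (median -0.35), among them mt-Cytb at 1092, 1318 and 1259.5 CPM with CSF1Ri against 1482, 1860.1 and 1589 CPM in Control. Their summed level was 14103 to 18208 CPM in Control and 10931 to 12872 CPM with CSF1Ri. Lipid uptake and handling genes were lower in 17 of 22, 11 without overlap (median -0.50). Immediate early and dissociation genes were higher in 16 of 23, 3 of these without overlap. Junb, an AP-1 subunit, was at 85.9, 102 and 90.7 CPM in the Control libraries and 209.6, 170 and 154 CPM in the CSF1Ri libraries, with no overlap (0.94 ± 0.16, adjusted p = 0.0813; 1.01 without replicate 3, where it passed). Cd69, an early activation antigen from the co-stimulation list, was at 139, 149 and 80.8 CPM with CSF1Ri against 32.8, 40.5 and 61.3 CPM in Control (1.45 ± 0.28). Without replicate 3 its difference was 1.66 and it passed. Junb overlaps Prdx2 on the other strand, and reads of these libraries cannot be assigned between the strands. Klf4, a transcription factor of monocyte differentiation, was at 161, 159 and 164 CPM in the Control libraries and 93, 115 and 94.6 CPM in the CSF1Ri libraries. The tight values set all CSF1Ri libraries below Control (-0.68 ± 0.12, adjusted p = 0.0813). Type 2 cytokine, alarmin and receptor genes were higher in 11 of 14, 6 without overlap (median 0.92), with Il5 and Il25 at 0 counts. Pattern recognition genes were higher in 16 of 21 (3 without overlap) and matrix metalloproteinases and inhibitors in 10 of 18 (3 without overlap). In CSF1Ri replicates 1, 2 and 3 the medians were 0.66, 0.43 and -0.21 for pattern recognition. For the metalloproteinases and inhibitors they were 1.09, 0.51 and -0.04. MHC class I genes were lower in 16 of 18, none of these without overlap, lysosomal genes in 14 of 24 (6 without overlap), complement and efferocytosis genes in 15 of 22 (6 without overlap) and cell cycle genes in 17 of 26 (4 without overlap). The class I median was -0.27, -0.35 and 0.05 in CSF1Ri replicates 1, 2 and 3. Bcl2 family genes were lower in 10 of 17 (7 without overlap) and myeloid transcription factors in 17 of 29 (6 without overlap). Markers of plasmacytoid dendritic cells were lower in 7 of 9, of keratinocytes in 11 of 13, of endothelium in 7 of 11, of muscle and fat in 9 of 10 and of red cells and platelets in 8 of 9, with medians of -0.54, -1.63, -0.09, -1.41 and -0.73. The keratinocyte genes nevertheless summed to 52.9 to 142 CPM in Control and 81.4 to 189 CPM with CSF1Ri. Co-stimulation, alternative activation, chemokine receptor, NF-kB and Fc receptor genes had medians between -0.10 and 0.22. Il4ra, the IL-4 receptor chain, was at 243, 167 and 99.9 CPM with CSF1Ri against 104, 90.2 and 108 CPM in Control. Cd40, the target of the antibody used in the other groups, was at 62, 60.4 and 109 CPM with CSF1Ri against 140.4, 98.1 and 151 CPM in Control, with overlap (-0.75 ± 0.26).

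The remaining protein-coding genes with the smallest p-values and no overlap were mixed in kind. Among those higher were Rab44, a large Rab GTPase of mast cells, at 125, 106 and 71.5 CPM with CSF1Ri against 15, 27.5 and 23.4 CPM in Control (2.20 ± 0.34), Gapt, an adaptor that binds GRB2, at 147, 109 and 153 CPM with CSF1Ri against 65.5, 70.8 and 52 CPM in Control (1.12 ± 0.20), Cyp11a1, the first enzyme of steroid synthesis, at 96.3, 142 and 71.1 CPM with CSF1Ri against 30.5, 39.4 and 25.9 CPM in Control (1.69 ± 0.29), and Rgcc, a regulator of the cell cycle, at 49, 49.9 and 16.8 CPM with CSF1Ri against 4.04, 4.08 and 3.08 CPM in Control (3.37 ± 0.61). Olfr1033, an olfactory receptor gene, stood at 261, 203 and 148 CPM with CSF1Ri against 96.4, 89.2 and 90.2 CPM in Control. Among those lower were Lilra5, an activating leukocyte receptor, at 19, 21.3 and 42.6 CPM with CSF1Ri against 111, 87.7 and 119 CPM in Control (-1.93 ± 0.30), the deoxyribonuclease Dnase1l3, at 2, 3.37 and 5.36 CPM with CSF1Ri against 18.1, 29.7 and 32 CPM in Control (-2.89 ± 0.50), and the sodium, potassium and chloride transporter Slc12a2, at 18.2, 14.5 and 26.6 CPM with CSF1Ri against 81.4, 102 and 96.1 CPM in Control (-2.23 ± 0.41). Tiam2, an exchange factor for Rac, was at 22.6, 31.7 and 29.8 CPM with CSF1Ri against 52.7, 70.9 and 67.9 CPM in Control. F11r, the junctional adhesion molecule A, was at 20.8, 29.5 and 35 CPM with CSF1Ri against 60.5, 74.3 and 98 CPM in Control. Fam213b, Haus3, Serpinb6a and Sh2d2a had differences of -1.49 ± 0.24, -1.65 ± 0.28, -2.40 ± 0.43 and -1.71 ± 0.32. The adjusted p-values of the genes in this group lay between 0.0813 and 0.0917. Without replicate 3, Rab44 (2.38), Cyp11a1 (1.88), Rgcc (3.71), Olfr1033 (1.32), Lilra5 (-2.41), Dnase1l3 (-3.33), Slc12a2 (-2.53), Tiam2 (-1.25), F11r (-1.64), Fam213b (-1.64) and Serpinb6a (-2.65) passed the test, while Gapt, Haus3 and Sh2d2a did not. Rab44, Tiam2, Fam213b, Haus3 and Serpinb6a overlap other genes, with which reads may be shared.

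The values of CSF1Ri replicate 3 did not enter the choice of the genes called without it, but those of the same Control libraries did. Of the 81 genes called higher, replicate 3 was above all Control libraries in 44 (54.3%), inside their range in 19 and below them in 18 (22.2%). Of the 43 called lower it was below all Control libraries in 33 (76.7%), inside in 6 and above in 4. Over all genes tested it was above Control in 26.3% and below in 27.4%. The median difference of the higher genes was 1.74 in replicates 1 and 2 and 0.30 in replicate 3, and that of the lower genes was -2.24 and -0.70. The called genes on the lists included Vcan, Fn1, Cd300e, Ace, Cd36, Aif1, Spic, Mcpt8, Hgf, Cd200r3, H2-Aa, H2-Eb1, Ifit3, Csf1, Osm, Il6, Ccl4, Ccl7, Cd14 and Clec7a. Because the genes were chosen against the same Control libraries, the shares in the chosen direction are raised. The shares over all genes are therefore not a matching expectation, and no conclusion is drawn from them.

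**Figure D5:**
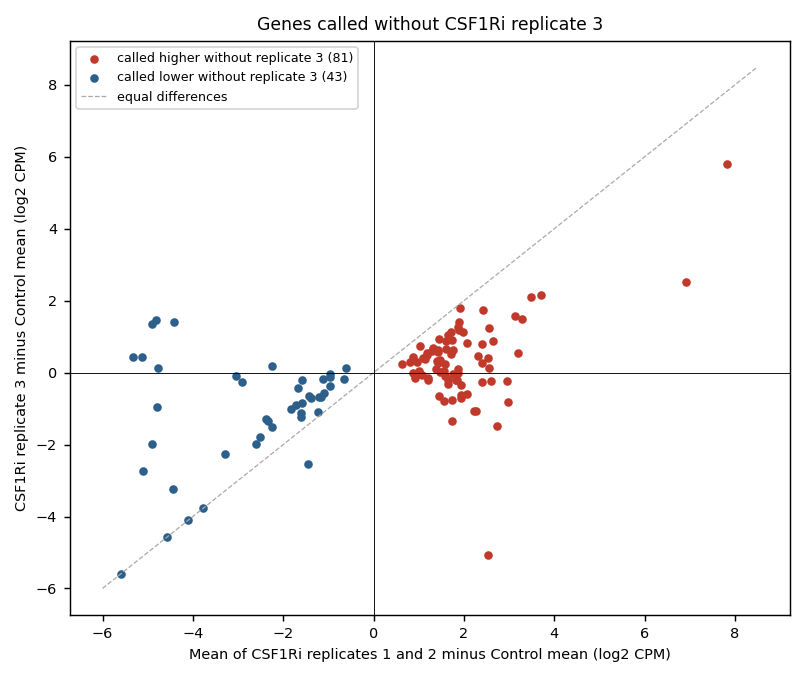
Log2 CPM minus the Control mean in CSF1Ri replicate 3 (vertical axis) against the mean of CSF1Ri replicates 1 and 2 (horizontal axis), for the 81 genes called higher (red) and the 43 called lower (blue) without replicate 3. Most red points lie well under the dashed line of equal differences, with a median of 0.30 in replicate 3 against 1.74.

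The same inhibitor was also given with the antibody, and the difference combination minus CD40 agonist shares no library with CSF1Ri minus Control. Across the 9703 genes with a mean of at least 5 CPM the log2 differences correlated at 0.27 (Pearson, across genes, which are not independent replicates). Classical monocyte genes were higher in 12 of 12 in both, and non-classical monocyte genes were lower in 14 of 16 without and 16 of 16 with the antibody. Macrophage genes were lower in 19 and 18 of 22, and basophil and mast cell genes were higher in 13 and 14 of 16. Eosinophil genes were higher in 11 of 11 without the antibody. With it 3 were higher and 6 lower, and the rest of the 11 differed by 0. Type I interferon genes were higher in 6 of 25 without and 24 of 25 with the antibody, and class II genes in 1 and 7 of 11. Over all genes 48.3% were higher without the antibody and 49.9% with it. Combination replicate 2 stood apart from replicates 1 and 3, at -9.84 on the first principal component of all 12 libraries against 72.0 and 59.2. C1qb was at 198, 8.64 and 93.4 CPM with the combination and 109, 170 and 299 CPM with the CD40 agonist. Chil3 was at 635, 3756 and 900 CPM against 1861, 1527 and 529 CPM. Cd300e, in contrast, was at 54.2, 47.1 and 73.2 CPM against 175, 162 and 115 CPM. The list counts were not repeated without combination replicate 2. For single genes, Cd300e differed by -1.95 ± 0.26 without and -1.37 ± 0.25 with the antibody, Csf1 by 1.68 ± 0.31 and 1.47 ± 0.31, and H2-Aa by -0.99 ± 0.20 and 0.21 ± 0.20. The test of the difference between both effects called 0 of 16027 genes in edgeR, with 1305 at an unadjusted p under 0.05, and DESeq2 called 178.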

How the data were processed

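The members and gene lists were chosen with earlier results of these data known, so no list was tested. Per the file headers the authors' deposited files give an estimated count and a TPM value for each transcript. The deposited TPM values reach 1000000 in each library and served only to compare levels between genes. Per the submitters' processing notes STAR, HTSeq, DESeq2 and mm10 were used, but the files have the layout of a transcript quantifier, which none of the labels names. The full genotype is not reported here. Libraries were non-stranded, made from 50 ng of RNA and sequenced as 75-bp pairs, with 6 libraries per lane, per the labels' protocols, and the labels do not say which of them ran together.

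Estimated counts of 110203 of 111462 transcripts (98.9%) matched GENCODE M21 (GRCm38, 1-based gene spans). They were summed per gene over the transcripts and rounded, giving 34989 genes and 26665394 to 32880763 counts in the 6 libraries. Such counts are divided among near-identical genes (the H2, Ear, Mcpt and Ifit families, Gm9973), whose values are uncertain. All 12 libraries entered one edgeR 4.0.16 fit (R 4.3.3, TMM, filterByExpr, robust quasi-likelihood F-tests, 8 residual degrees of freedom), with Benjamini-Hochberg adjustment over 16027 genes, and the procedure was tested on simulated counts. Log2 CPM used a prior count of 2. The floor of 3 counts covers counting error only, as PCR copies were not told apart. Cages and collection days are not labelled, so a p-value reflects only the spread between pools of tumors. Named genes were every called gene, the 12 higher and 12 lower protein-coding genes with the smallest p among those with a mean of at least 5 CPM and no overlap, anchors of the CSF1 receptor and macrophages, and at most 4 genes of a list by p. Ms4a2 was named after its values were seen, for its promoter. Alternatives were other normalizations, filters, tools (DESeq2 1.42.0, limma 3.58.1 voom), gene sets, a replicate block and leaving out libraries. Adjusted p below 0.10 was added after seeing the data. Promoters are the 250 bases before each RefSeq start. A gene counted as holding a motif when any of its promoters did, and each promoter shown was taken from those with a match.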

Additional observations from a re-analysis of the deposited data

Results flagged for a closer look

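In 4 of the genes named here the CSF1Ri libraries lay entirely on one side of the Control libraries while the combination lay entirely on the other side of the CD40 agonist libraries. The values without the antibody are given first and the difference between both log2 differences last. None of these differences of effects passed the edgeR test. Of all 16027 genes 151 had such opposed groups without overlap, against 264 with both pairs apart in the same direction. Taken singly, the first pair was apart in 1159 genes higher and 1371 lower, and the second in 1057 higher and 1111 lower. Whether 151 differs from the count for unrelated pairs was not tested. Ifit3, the antiviral gene, was at 23.1, 17.4 and 9.24 CPM with CSF1Ri against 46.8, 58.1 and 59.6 CPM in Control, and at 20.1, 16.4 and 15.6 CPM with the CD40 agonist and 26.6, 33.5 and 29.1 CPM with the combination, a difference of effects of 2.50 (adjusted p = 0.174). Cxcl10, a chemokine induced by interferons, was at 12.4, 12.7 and 5.22 CPM with CSF1Ri against 23.9, 25.5 and 19.9 CPM in Control, and at 25.9, 11.4 and 18.4 CPM with the CD40 agonist and 37.4, 172 and 44.8 CPM with the combination (3.39, adjusted p = 0.319). Nfkb2, a subunit of NF-kB of the non-canonical pathway, was at 47.6, 49.2 and 50.2 CPM with CSF1Ri against 57, 64.1 and 60.7 CPM in Control, and at 47.5, 41.7 and 49.2 CPM with the CD40 agonist and 75.2, 78 and 83.2 CPM with the combination (1.08, adjusted p = 0.174). Ear6, the eosinophil ribonuclease, was at 11, 9.89 and 35 CPM with CSF1Ri against 3.13, 2.03 and 2.14 CPM in Control, and at 1.88, 1.57 and 2.06 CPM with the CD40 agonist and 0.98, 0.813 and 0.689 CPM with the combination (-4.08, adjusted p = 0.217).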

How the results depend on the processing

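Biological variation between libraries of a group was estimated at 61% (edgeR common BCV), and the count of 2 called genes depended on the setting. It was 0 with only the 6 libraries of the comparison, 0 with limma voom, 0 with protein-coding genes only, 3 (2 higher, 1 lower) with no filter on low counts or a stricter one, 2 (1 higher, 1 lower) with bias-adjusted edgeR, 408 (197 higher, 211 lower) with DESeq2, 48 (20 higher, 28 lower) at an adjusted p below 0.10, and 338 (186 higher, 152 lower) without CSF1Ri replicate 3 and combination replicate 2 together. DESeq2 size factors and library totals kept 2. Leaving out 1 library at a time gave 0 to 124 genes, 0 to 81 higher and 0 to 43 lower. The 124 came without CSF1Ri replicate 3; without combination replicate 2 the count was 10, without CSF1Ri replicate 1 it was 1, and without any other library 0.

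The replicate numbers did not pair the samples, since same-numbered libraries correlated at -0.0614 to 0.0603 after removing group means. The fit with the replicate block called 3 genes, 1 higher and 2 lower, with 1 of the 2 calls kept.

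For the difference of the inhibitor's effects with and without the antibody the count of 0 became 178 with DESeq2 and 66 without CSF1Ri replicate 3 and combination replicate 2, and leaving out 1 library gave 0 to 15 (15 without CSF1Ri replicate 3, 1 without CSF1Ri replicate 1). It was 0 under each other alternative run.

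Among the named genes 4 changed sign. Leaving out 1 library at a time, the log2 difference ran from -0.0106 (without CSF1Ri replicate 2) to 0.1305 for Cd68, from -0.048 (without CSF1Ri replicate 1) to 0.089 for Ptprc, from -0.9236 to 0.44 (without Control replicate 1) for Csf3 and from -0.7891 to 0.16 (without CSF1Ri replicate 2) for Flt3. Csf3 was at 0.34 without CSF1Ri replicate 3 and combination replicate 2 together. At depths of 26665394 counts or more, Il34 and Epx still lay under the filter and could not be compared.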
